A study of Mus musculus with 2 samples.

Results

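Activated B cells carrying transcripts of the early growth response genes Egr1, Egr2 and Egr3 and of Myc were examined among immune cells recovered from the colon of mice with experimental colitis. Members were chosen by the UMIs of named genes, the unique molecular identifiers that count captured transcripts, and a cell was a member when it met 2 sets of conditions. The first set defined a B cell: at least 200 genes, at most 20% mitochondrial UMIs, at least 3 UMIs of Cd79a, Cd79b and Ms4a1, no UMI of Cd3d, Cd3e or Cd3g, fewer than 5 of S100a8 and S100a9, fewer than 20 of Jchain, fewer than 2 of Mki67 and Top2a, fewer than 3 of Ifit1, Ifit2, Ifit3, Rsad2 and Usp18, and fewer than 4 of Gbp4, Gbp7, Serpina3f, Serpina3g and Iigp1. The second required at least 3 UMIs of Egr1, Egr2, Egr3 and Myc together. The rule found 571 members among 14283 barcodes, and among 4270 B cells that met the first set. Of these members, 350 came from the library labelled CKO, out of 3334 B cells, and 221 from the library labelled WT, out of 936 B cells. The 3699 B cells with 0 to 2 Egr and Myc UMIs are called other B cells below.

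The study made 1 library from the colons of C57BL/6 mice labelled CKO and 1 from C57BL/6 mice labelled WT, both with colitis. Its title names loss of RPA1, a subunit of the complex that coats single-stranded DNA, and necroptosis of T cells. The labels do not state the deleted exons, the Cre driver, the kind of colitis, the ages of the mice or how many mice each library holds. With 1 library for each label, the label, the animals and the library cannot be told apart, and no test between them was possible. Values in brackets are 95% bounds on counting error alone, without variation between mice.

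Egr1, Egr2 and Egr3 are zinc finger transcription factors switched on within minutes when the B cell receptor or another growth signal is engaged, and their transcripts are short-lived. Myc is induced in the same early phase and drives ribosome production, polyamine and nucleotide synthesis and cell growth before division. The Nr4a orphan receptors, the NF-kB subunit c-Rel, the transcription factor Irf4 and the surface proteins Cd69 and Cd83 are further known responses to B cell receptor signalling. Several of these early genes are also known to be induced while tissue is dissociated into single cells.

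Pax5, the factor that maintains B cell identity and is no gene of the rule, was at like levels in members and other B cells. It stood at 296 and 286 counts per 1000000 UMIs (CPM) in members of the libraries labelled CKO and WT, against 292 and 277 CPM in other B cells. Ighm was the leading heavy-chain constant region in 82.4% of CKO members and 69.4% of WT members with at least 3 such UMIs, and Igha in 13.8% and 25.6%. In other B cells Igha led in 13.1% in CKO and 26.9% in WT, close to its share in members of the same library. The 15 T cell markers, of which 3 are held at 0 by the rule, summed to 43.5 CPM in CKO members and 33.8 CPM in WT members, against 24.7 and 41.3 CPM in other B cells, and no single T cell gene outside the rule reached 20 UMIs in members.

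Members held 1263245 UMIs in CKO and 1095883 UMIs in WT, with a median of 3254 and 4375 UMIs per cell, so WT members were sampled more deeply. Other B cells held a median of 2917 UMIs in CKO and 3742 UMIs in WT. Scrublet marked none of the members as doublets, but it marked only 1 of 2925 cells in WT and cannot be taken to have worked there. Across all cells 6 barcodes occurred in both libraries, 1 of them in each set of members.

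Sequence upstream of the start sites was read from RefSeq for assembly GRCm38.p6, in windows of 250 bases before to 50 bases after each start. The 4 windows shown hold motifs of factors known to act in early gene induction, 1 in a gene of the rule and 3 in genes that were highest in members. Capitals mark the matched motif letters. The first window belongs to Egr2, a gene of the rule, and its capitals are a CArG box, the motif of serum response factor. The next belongs to Nfkbid, an atypical inhibitor of NF-kB, and its capitals are a pair of NF-kB motifs and a CRE (TGACGTCA), the motif of CREB. The last windows belong to Bcl2a1b and Bcl2a1d, antiapoptotic relatives of Bcl2, and their capitals are the Egr motif GCGTGGGCG on the opposite strand.
Egr2 chr10:67537680-67537979, plus strand: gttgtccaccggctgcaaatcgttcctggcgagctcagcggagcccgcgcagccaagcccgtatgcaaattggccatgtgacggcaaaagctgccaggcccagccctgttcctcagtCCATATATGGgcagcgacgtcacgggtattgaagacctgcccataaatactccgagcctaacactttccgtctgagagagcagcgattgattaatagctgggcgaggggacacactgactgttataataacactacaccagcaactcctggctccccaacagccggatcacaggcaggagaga
Nfkbid chr7:30422156-30422455, plus strand: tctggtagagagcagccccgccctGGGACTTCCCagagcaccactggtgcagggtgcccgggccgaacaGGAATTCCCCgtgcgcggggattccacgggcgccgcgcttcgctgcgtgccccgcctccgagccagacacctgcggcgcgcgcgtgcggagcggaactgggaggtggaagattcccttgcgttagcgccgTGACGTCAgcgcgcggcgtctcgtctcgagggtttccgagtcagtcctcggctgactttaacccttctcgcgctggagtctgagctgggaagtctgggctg
Bcl2a1b chr9:89199023-89199322, plus strand: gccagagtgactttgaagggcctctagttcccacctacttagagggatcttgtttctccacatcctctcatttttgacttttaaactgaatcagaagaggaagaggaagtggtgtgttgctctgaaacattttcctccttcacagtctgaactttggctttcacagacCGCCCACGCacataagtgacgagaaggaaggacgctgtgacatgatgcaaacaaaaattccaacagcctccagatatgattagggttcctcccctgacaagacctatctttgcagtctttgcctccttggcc
Bcl2a1d chr9:88731801-88732100, minus strand: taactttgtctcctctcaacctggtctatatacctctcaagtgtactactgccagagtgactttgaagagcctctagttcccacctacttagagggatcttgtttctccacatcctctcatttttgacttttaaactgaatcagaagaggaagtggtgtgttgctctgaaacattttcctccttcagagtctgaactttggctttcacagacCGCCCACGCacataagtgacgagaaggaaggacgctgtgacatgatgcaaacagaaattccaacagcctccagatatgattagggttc

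Both strands of 32851 windows were searched for each motif. A CArG box was present in 1.63% of all windows, a CRE in 1.79%, the Egr motif in 0.612% and the NF-kB motif, which may overlap itself, in 8.46%. Of the 15 genes highest in members among those at 50 CPM or more, 13 had a window in the table, and some had several. The NF-kB motif was found for 5 of the 13 (Arl5b, Hilpda, Hspa1b, Nfkbid and Nr4a1), the CRE for 2 (Arl5b and Nfkbid), the Egr motif for 2 (Bcl2a1b and Bcl2a1d) and the CArG box for 0. The Bcl2a1b and Bcl2a1d windows share the letters around the Egr motif, so these are not separate matches. The shares above are of windows, and these counts are of genes. Of the 5 windows of Egr2, 4 overlapping or neighbouring ones held a CArG box. A match is a description of the letters, and its absence says only that these letters are not in the window.

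The Egr and Myc UMIs were the measure that chose the cells, and they are given as a description. Egr1 supplied 54.6% of the Egr and Myc UMIs of CKO members and 51.3% of those of WT members. Its level was 1025 CPM in CKO members and 692 CPM in WT members, against 30.4 and 35.5 CPM in other B cells. Egr3 stood at 416 CPM in CKO members and 284 CPM in WT members, Myc at 374 and 350 CPM, and Egr2 at 64.1 and 23.7 CPM. Most members carried more than 1 of the 4 genes: only 19.7% of CKO members and 23.5% of WT members owed their UMIs to a single gene. Myc was detected together with an Egr gene in 54.9% of CKO members and 59.7% of WT members, and Myc without any Egr gene in 16 and 10 cells. Egr transcripts without Myc were found in 142 CKO members and 79 WT members.

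**Figure D1:**
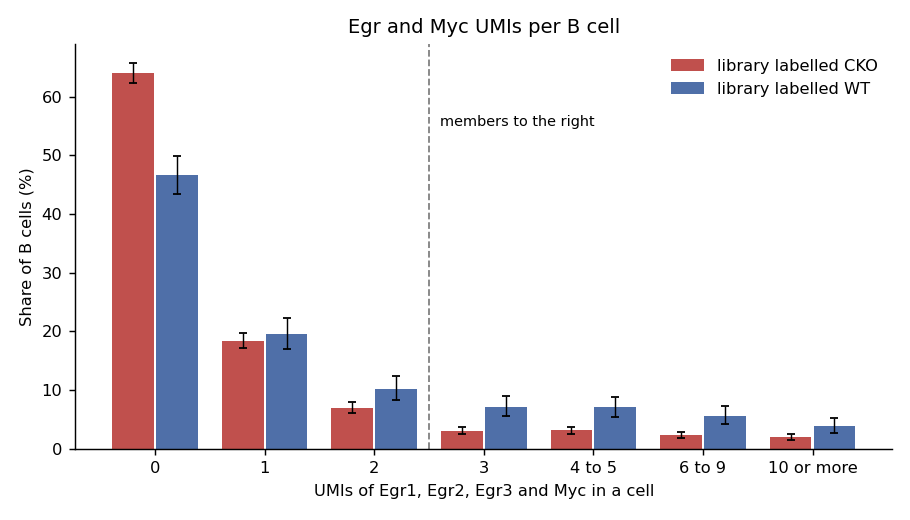
Share of B cells (%, y axis) by the number of Egr1, Egr2, Egr3 and Myc UMIs in a cell (x axis) in the libraries labelled CKO (left bars) and WT (right bars), with exact binomial 95% intervals as error bars and members to the right of the dashed line. Cells with 0 UMIs made up 64.1% of B cells in CKO and 46.6% in WT, and no bin on either side of the threshold is empty. The bins of 4 to 5, 6 to 9 and 10 or more UMIs are wider than the others.

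The threshold of 3 UMIs cut through a continuous distribution. Just inside it, 101 CKO and 67 WT cells had exactly 3 UMIs, and just outside it, 233 CKO and 96 WT cells had 2. At the high end, 67 CKO members and 36 WT members had 10 or more, and the richest single cells held 26 Egr1 UMIs in CKO and 28 in WT.

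Members made up 10.5% of B cells in the library labelled CKO (interval 9.48 to 11.6) and 23.6% in the library labelled WT (20.9 to 26.5), a difference of -13.1 percentage points. Because WT cells were deeper, B cells were also thinned to 2000 UMIs each, leaving out 379 CKO and 84 WT cells that had fewer. At least 2 Egr and Myc UMIs were then found in 11.8% of CKO B cells and 19.95% of WT B cells, and at least 1 in 29.0% and 39.4%. At a threshold of 3 UMIs in the thinned cells, the shares were 6.73% and 11.5%. The share was lower in the CKO library under all 3 thresholds. Of all cells passing the gene and mitochondrial filters, members were 3.14% in CKO and 7.56% in WT.

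Among genes that the rule did not name, those highest in members over other B cells included Nr4a receptors, Atf3, Irf4, NF-kB feedback genes and chemokines. Genes with at least 50 UMIs in members, observed or expected from the other B cells, were read, and a gene was counted when it was at least 2-fold higher or lower in both libraries. Of 4883 such genes, 18 (0.369%) were higher and 3 (0.0614%) were lower, and 32.5% were higher by any amount in both. Because the Egr and Myc UMIs chose the cells, these counts describe the members and support nothing further. The 18 higher genes were Mir155hg, Maff, Atf3, Plk3, Tagap, Ccl3, Nr4a1, Ankrd33b, Hspa1b, Ccl4, Nr4a3, Arl5b, Irf4, Bcl2a1b, Nfkbid, Bcl2a1d, Marcksl1 and Icam1. The 3 lower ones were Zfp53 and the cytotoxic lymphocyte genes Gzma and Ccl5. Ccl5 stood at 14.2 CPM in CKO members and 3.65 CPM in WT members, against 67.7 and 23.1 CPM in other B cells. CKO and WT members held 18 and 4 UMIs of Ccl5, 17 and 4 of Gzma, and 8 and 11 of Zfp53. The count of lower genes was 1 without cells holding UMIs of other myeloid or innate genes, and 0 without any S100a8 or S100a9 UMI.

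Nr4a1, which encodes the nuclear receptor Nur77 and is widely used as a reporter of antigen receptor signalling, had the highest level of these genes. It stood at 496 CPM in CKO members and 382 CPM in WT members, against 112 and 163 CPM in other B cells. The log2 ratio of members over other B cells was 2.14 (2.0 to 2.29) in CKO and 1.23 (1.04 to 1.42) in WT, and Nr4a1 was detected in 60.3% and 62.4% of members. Its relative Nr4a3 stood at 123 CPM in CKO members and 63.0 CPM in WT members, against 36.6 and 29.3 CPM in other B cells. Tagap, a GTPase-activating protein gene induced in activated lymphocytes, stood at 86.3 and 63.0 CPM in members, against 19.3 and 22.4 CPM in other B cells.

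Atf3, a stress-induced transcription factor, was at a lower level but had larger ratios. It stood at 44.3 CPM in CKO members and 61.1 CPM in WT members, against 9.03 and 17.6 CPM in other B cells, with log2 ratios of 2.30 (1.78 to 2.80) and 1.80 (1.25 to 2.35). Mir155hg, the host transcript of miR-155, a regulator of B cell responses, stood at 26.9 and 18.2 CPM in members, against 4.88 and 5.17 CPM in other B cells. Both were carried by a minority of members, since Atf3 was detected in 11.1% of CKO members and 12.7% of WT members and Mir155hg in 8.0% and 7.24%. Marcksl1, a cytoskeletal adaptor, stood at 153 and 115 CPM in members, against 65.0 and 57.2 CPM in other B cells.

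Irf4, a transcription factor whose level follows the strength of B cell receptor signalling, stood at 226 CPM in CKO members and 162 CPM in WT members, against 77.4 and 78.5 CPM in other B cells. Nfkbid stood at 168 and 122 CPM in members, against 51.5 and 59.9 CPM in other B cells. Bcl2a1b stood at 185 and 162 CPM in members, against 67.5 and 78.2 CPM in other B cells, and Bcl2a1d at 83.1 and 53.8 CPM, against 37.3 and 26.5 CPM. These paralogs are nearly identical in sequence, so the split of UMIs between them is uncertain. Icam1, an adhesion molecule that binds the integrin LFA-1, stood at 81.5 and 52.9 CPM in members, against 40.7 and 25.1 CPM in other B cells.

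Some of the leading genes were carried by few members. Ccl4, which encodes a chemokine that attracts T cells and monocytes, was detected in 8.0% of CKO members and 9.05% of WT members. It stood at 80.7 CPM in CKO members and 107 CPM in WT members, against 36.7 and 22.4 CPM in other B cells. One WT cell held 40 of the 117 Ccl4 UMIs of WT members, and one CKO cell held 23 of 102. With members chosen after thinning to 2000 UMIs, at a threshold of 2 Egr and Myc UMIs, the weaker of its 2 log2 ratios was 0.07, so its place among the leading genes depends on which cells are taken. The same selection gave 0.29 for Bcl2a1d. Hspa1b, which encodes an inducible heat shock protein, was likewise detected in 9.14% of CKO members and 11.8% of WT members, at 110 and 162 CPM, against 43.4 and 71.3 CPM in other B cells.

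**Figure D2:**
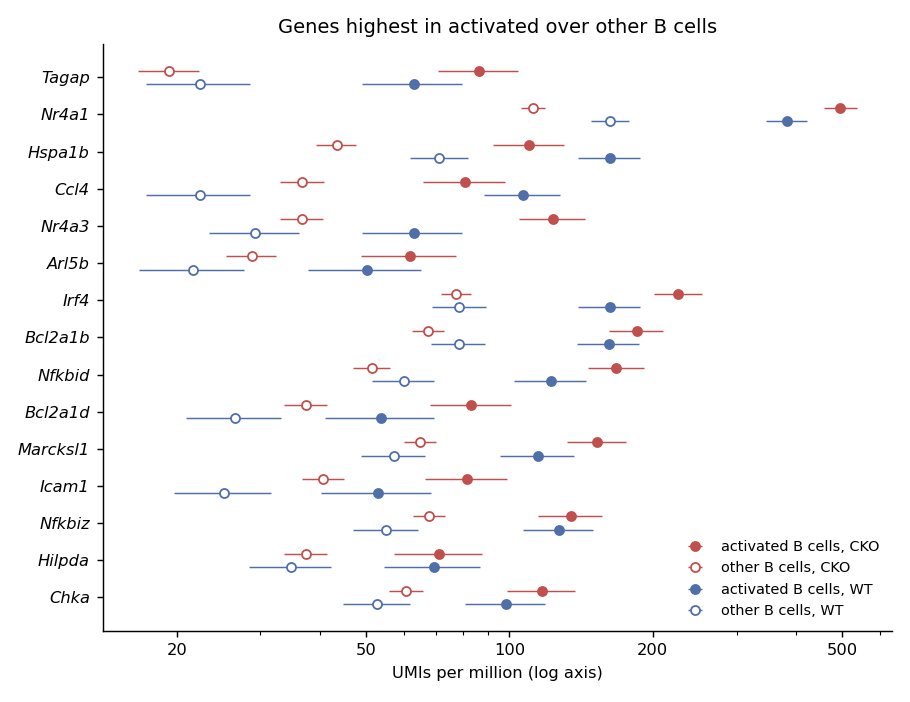
Level in CPM (log axis) of the 15 genes highest in members, with filled circles for activated and open circles for other B cells, and the library labelled CKO above the library labelled WT in each row. Bars are exact Poisson 95% intervals, and every filled circle lies to the right of the open circle of its library.

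The genes lowest in members by this ranking differed by less than 2-fold. Txnip, which restrains glucose uptake, stood at 146 CPM in CKO members and 118 CPM in WT members, against 251 and 182 CPM in other B cells. Klf3, a transcriptional repressor, stood at 56.2 and 50.2 CPM in members, against 87.0 and 82.3 CPM in other B cells. Cenpa, the centromeric histone variant, stood at 77.6 and 87.6 CPM, against 144 and 164 CPM, with log2 ratios of -0.89 (-1.20 to -0.60) in CKO and -0.90 (-1.23 to -0.58) in WT. Neurl3, Bcl7a, Hbp1, Dapp1, Pgap1, Ssh2 and Cux1 completed the 10 lowest, with log2 ratios between -0.88 and -0.54.

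Read as lists, the immediate early, ribosome production and NF-kB genes had medians above that of all genes, and the lists of the resting state and antigen presentation had medians below it. List members with at least 20 UMIs in members were counted, and over all 7365 such genes 28 (0.38%) were at least 2-fold higher in both libraries, 17 (0.231%) were lower, and 29.5% were higher by any amount in both. The median log2 ratio over all genes was -0.03 in CKO and 0.01 in WT. Of 35 immediate early genes, 32 were higher in members in both libraries, 4 of them at least 2-fold, and the list median was 0.66 in CKO and 0.30 in WT. The 4 were Maff, Atf3, Nr4a1 and Nr4a3. Nr4a2 followed, at 116 CPM in CKO members and 43.8 CPM in WT members, against 26.6 and 22.7 CPM in other B cells.

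Of 34 ribosome biogenesis and nucleolar genes, the best known Myc targets, 32 were higher in members in both libraries and 0 reached 2-fold. The list median was 0.52 in CKO and 0.66 in WT. Heatr1, a factor for ribosomal RNA transcription, stood at 53.0 CPM in CKO members and 47.5 CPM in WT members, against 32.9 and 24.5 CPM in other B cells. Nolc1, a nucleolar phosphoprotein, stood at 159 and 161 CPM in members, against 106 and 98.9 CPM in other B cells. Of 24 polyamine, nucleotide and one-carbon genes, 20 were higher in both libraries, with medians of 0.35 and 0.53. Shmt1, which feeds one-carbon units into nucleotide synthesis, was the 1 gene past 2-fold, at 14.2 and 16.4 CPM in members, against 4.88 and 2.76 CPM in other B cells.

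Of 24 NF-kB genes, 16 were higher in members in both libraries, 3 of them (Nfkbid, Bcl2a1b and Bcl2a1d) at least 2-fold, with medians of 0.40 in CKO and 0.47 in WT. Rel, which encodes c-Rel, stood at 1259 CPM in CKO members and 938 CPM in WT members, against 710 and 602 CPM in other B cells. Nfkbia, the feedback inhibitor of NF-kB, stood at 384 and 297 CPM, against 228 and 172 CPM. Of 19 activation and costimulation genes, 9 were higher in both libraries, among them Cd83 at 535 and 479 CPM, against 310 and 315 CPM in other B cells. Cd69 stood at 439 and 536 CPM in members, against 263 and 334 CPM in other B cells. Of 11 B cell chemokine and cytokine genes, 7 were higher in both libraries, and Ccl3, Ccl4 and Tnf passed 2-fold. Ccl3 stood at 67.3 and 49.3 CPM in members, against 20.2 and 18.6 CPM in other B cells, but one CKO cell held 35 of its 85 UMIs and one WT cell 29 of its 54.

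The class II antigen presentation list, B cell receptor signalling list and resting B cell list had medians at or below 0. For class II the medians were -0.13 in CKO and -0.11 in WT. Of its 13 genes, 1 was higher in both libraries, where 29.5% of all 7365 genes were, and 0 were past 2-fold in both. For the receptor complex and its proximal kinases they were -0.06 and -0.16, and for resting and recirculating genes -0.08 and -0.14. The 7 germinal centre genes read had medians of 0.00 and -0.13. Genes of the dissociation stress list moved with the members, since all 15 that were read were higher in both libraries, with medians of 0.43 in CKO and 0.56 in WT. The part of tissue handling in the early gene pattern was not tested.

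Levels differed along the bins of Egr and Myc UMIs. Ncl, which encodes nucleolin, stood at 1221 CPM in CKO cells with 2 UMIs, 1397 CPM with 3 and 1712 CPM with 4 to 5. In WT cells it stood at 1227 (1125 to 1337) CPM with 2, 1639 (1504 to 1783) CPM with 3 and 1515 CPM with 4 to 5. Nr4a1 stood at 96.2 CPM in CKO cells with 0 Egr and Myc UMIs, 205 CPM with 2, 290 CPM with 3, 540 CPM with 6 to 9 and 927 CPM with 10 or more. In WT cells it stood at 152 CPM with 0, 214 CPM with 2, 206 CPM with 3, 460 CPM with 6 to 9 and 583 CPM with 10 or more. Irf4 stood at 62.6 CPM in CKO cells and 71.5 CPM in WT cells with 0 such UMIs, and at 288 and 210 CPM with 10 or more. Rel and Cd83 were already higher in cells with 2 UMIs, outside the rule, than in cells with 0. Rel stood at 926 CPM in CKO and 809 CPM in WT with 2 UMIs, and at 659 and 566 CPM with 0.

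**Figure D3:**
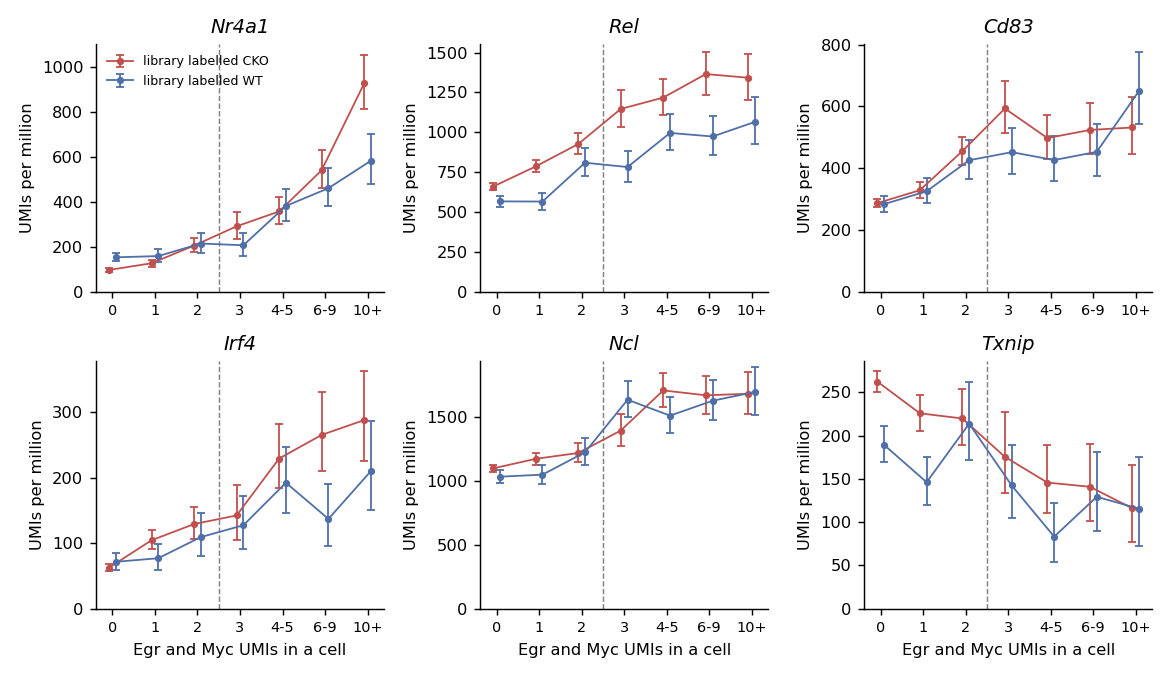
Level in CPM (y axis) of 6 genes by the number of Egr and Myc UMIs in a B cell (x axis), for the libraries labelled CKO and WT, with exact Poisson 95% intervals and the membership threshold as a dashed line. Nr4a1, Rel, Cd83, Irf4 and Ncl lie higher in the bin of 10 or more UMIs than in the bin of 0 in both libraries, and Txnip lies lower.

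The genes most like the Egr and Myc sum in B cells were ranked by Spearman's rho over 3807 B cells thinned to 2000 UMIs, among 3767 genes. Nr4a1 led with 0.20, followed by Fosb at 0.16, Gpr183 at 0.15, and Rel and Cd83 at 0.14. Gpr183 encodes the oxysterol receptor EBI2, which positions activated B cells in lymphoid tissue, and Fosb is an AP-1 subunit. Such low values in sparse counts are a description of rank only. Gpr183 stood at 213 CPM in CKO members and 226 CPM in WT members, against 89.7 and 128 CPM in other B cells.

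Members with and without Myc differed in ribosome production and in AP-1 genes. Members with a Myc UMI numbered 208 in CKO and 142 in WT, with medians of 3338 and 4564 UMIs per cell, and members without one numbered 142 and 79, with medians of 3163 and 4117. The ribosome biogenesis list summed to 6652 CPM in CKO members with Myc and 4585 CPM in CKO members without it, a log2 ratio of 0.54 (0.46 to 0.61). In WT it summed to 6962 CPM with Myc and 3894 CPM without, a log2 ratio of 0.84 (0.75 to 0.93). Members without a Myc UMI lay close to B cells with no Egr or Myc UMI at all, which had 4153 CPM in CKO and 3737 CPM in WT. The log2 ratios of these members over those cells were 0.14 (0.08 to 0.21) and 0.06 (-0.03 to 0.14).

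The same split was made in other B cells, which the rule had left out. There the ribosome biogenesis list summed to 4911 CPM with a Myc UMI and 4193 CPM without in CKO, and to 4761 and 3732 CPM in WT. The log2 ratios were 0.23 (0.19 to 0.27) in CKO and 0.35 (0.28 to 0.42) in WT. An Egr UMI without Myc went with ratios of 0.06 (0.03 to 0.10) in CKO and -0.01 (-0.07 to 0.06) in WT over cells with neither. The nucleolar sum lay higher with a Myc UMI in members and in other B cells of both libraries. It lay higher by less, or not at all, with an Egr UMI alone. Myc is a gene of the rule, which also limits other B cells to 0 to 2 Egr and Myc UMIs. The split was chosen after its values were seen, so these ratios describe the cells and support nothing further. Cells with a Myc UMI were also deeper, with a median of 3128 against 2889 UMIs in CKO other B cells and 4086 against 3663 in WT. In CKO other B cells, marker sums of other cells differed by Myc as well, with log2 ratios of 1.26 (1.11 to 1.42) for NK and ILC, 1.16 (0.69 to 1.60) for T cells and -1.71 (-2.38 to -1.11) for mast cells and basophils. In WT other B cells these ratios were 0.07, 0.14 and 0.69, each with an interval that spans 0. Their part in the nucleolar sum was not tested. Ncl stood at 1822 CPM in CKO members with Myc and 1276 CPM without, and at 1901 and 991 CPM in WT members. Polyamine and nucleotide genes followed, with log2 ratios of 0.42 (0.28 to 0.56) in CKO members and 0.81 (0.66 to 0.97) in WT members.

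AP-1 genes ran the other way within members. Fos stood at 201 CPM in CKO members with Myc and 429 CPM in those without, and at 408 and 894 CPM in WT members. The log2 ratios were -1.09 (-1.40 to -0.79) in CKO and -1.13 (-1.36 to -0.90) in WT, and for Jun they were -0.62 and -0.46. Members without Myc carry at least 3 Egr UMIs by the rule, while those with Myc may carry fewer. Egr1 was also lower in members with Myc, by log2 ratios of -0.63 and -0.72. In other B cells the Fos ratio was -0.44 (-0.71 to -0.19) in WT. In CKO it was 0.16 (-0.06 to 0.37), with an interval that spans 0. The rule caps Egr and Myc UMIs together there, so a Myc UMI leaves room for fewer Egr UMIs in those cells too. The Egr1 ratios by Myc in other B cells were -0.56 (-1.23 to 0.05) in CKO and -1.63 (-3.12 to -0.46) in WT. The Fos ratios are thus not independent of the rule, and its part in them was not tested. Neutrophil markers other than S100a8 and S100a9 moved with this split. They summed to 68.8 CPM in CKO members with Myc and 215 CPM in those without, and to 17.4 and 37.4 CPM in WT members, and their part in the Fos values was not tested. Irf4 went with Myc in members, at 269 and 157 CPM in CKO and 182 and 121 CPM in WT. Resting B cell genes summed lower with Myc, by log2 ratios of -0.19 in both libraries.

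**Figure D4:**
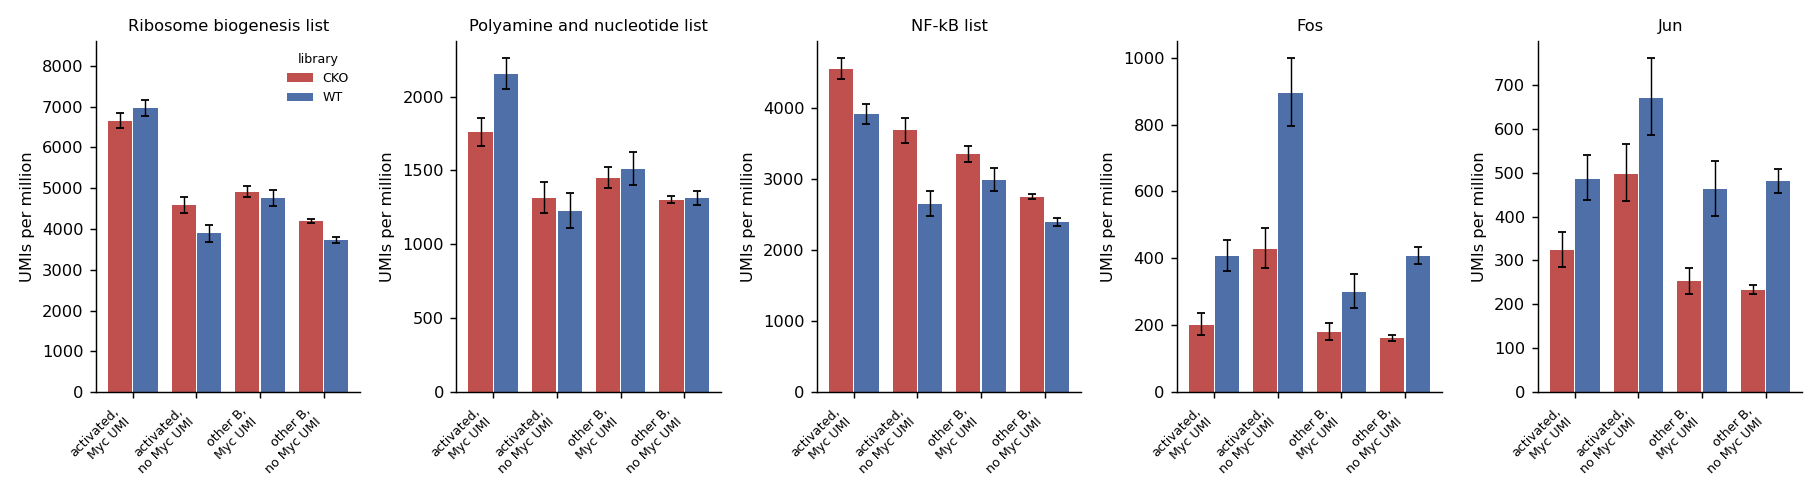
Level in CPM (y axis) of 3 gene lists and of Fos and Jun in members and other B cells with and without a Myc UMI (x axis), for the libraries labelled CKO (left bars) and WT (right bars), with exact Poisson 95% intervals. The ribosome biogenesis list is highest in members with Myc, at 6652 and 6962 CPM, while Fos is highest in members without Myc, at 429 and 894.

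Markers of other cell types were detected in members. The 15 monocyte and macrophage markers summed to 964 CPM in CKO members and 1123 CPM in WT members, against 1391 and 1372 CPM in other B cells. Apoe made up 754 and 936 CPM of the sums in members, and Adgre1, which encodes F4/80, was at 0. The 8 plasma cell markers, with Jchain, a gene of the rule, summed to 466 CPM in CKO members and 691 CPM in WT members, against 579 and 970 CPM in other B cells. The 14 NK and ILC markers summed to 173 CPM in CKO members and 66.6 CPM in WT members, against 201 and 86.1 CPM in other B cells. The 13 neutrophil markers, with S100a8 and S100a9 included, summed to 307 CPM in CKO members and 57.5 CPM in WT members, against 297 and 87.5 CPM in other B cells, so they were higher in CKO in both kinds of B cell. Neutrophils, taken as cells with at least 20 S100a8 and S100a9 UMIs and no B or T cell UMI, themselves held Egr1 at 945 CPM in CKO and 1797 CPM in WT. For each Egr1 UMI, neutrophils held 120.6 S100a8 and S100a9 UMIs in CKO and 31.7 in WT, and members held 0.178 and 0.0488. The rule caps these UMIs in members, and neutrophils were chosen for them. The part of neutrophil RNA in the Egr1 level of members was not tested. In T cells, taken as cells with at least 3 Cd3 UMIs, Egr1 stood at 120 and 118 CPM and Egr3 at 5.79 and 8.19 CPM.

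Between the libraries, Nr4a2, Tnfaip3, Gadd45b and interferon-induced genes were higher in CKO members, and Klf2, Fos and cholesterol synthesis genes were lower. Of 4614 genes with at least 50 UMIs in members, 194 (4.20%) were at least 1.5-fold higher and 311 (6.74%) at least 1.5-fold lower in CKO members than in WT members. In other B cells, whose sums are larger and hold less counting error, 78 (1.69%) and 55 (1.19%) of the same genes were past that fold. Scaling by the median ratio in place of the total turned the split in members to 238 higher and 257 lower. The median of the 7035 genes with at least 20 UMIs was -0.06 in members and -0.02 in other B cells on the log2 scale.

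The genes of the rule need care here, because a fixed threshold asks for a higher level from shallower cells. The Egr1 log2 ratio of CKO over WT members was 0.57 (0.44 to 0.70), but it was 0.12 (-0.02 to 0.26) in a second selection, which thinned cells to 2000 UMIs and took those with at least 2 Egr and Myc UMIs (349 CKO and 170 WT cells). That selection changed depth and threshold together. Egr3 was at 0.55 and 0.36 under the 2 selections, Egr2 at 1.43 and 0.87, and Myc at 0.09 and -0.27. Nr4a1 was at 0.37 (0.19 to 0.56) under the main rule and 0.05 (-0.15 to 0.24) in the second selection. In other B cells Nr4a1 was lower in CKO, at 112 CPM against 163 CPM in WT. Its higher level in CKO members was thus not seen in the second selection, and the parts of depth and threshold were not tested apart.

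Nr4a2, Tnfaip3 and Gadd45b remained higher in CKO members after that change. Nr4a2, an orphan nuclear receptor like Nr4a1, stood at 116 CPM in CKO members and 43.8 CPM in WT members. Its CKO over WT log2 ratio was 1.41 (0.93 to 1.91) in members, 1.01 (0.49 to 1.56) in the second selection, and 0.22 (-0.17 to 0.64) in other B cells. Tnfaip3, which encodes the NF-kB inhibitor A20, stood at 132 CPM in CKO members and 57.5 CPM in WT members. Its ratios were 1.20 (0.78 to 1.64), 1.07 (0.55 to 1.61) and 0.46 (0.21 to 0.73) in the same order. Gadd45b, a stress-response gene, stood at 264 and 141 CPM, with ratios of 0.91 (0.63 to 1.20), 0.73 (0.39 to 1.07) and 0.18 (-0.02 to 0.40).

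Interferon-induced genes were higher in CKO members and in CKO other B cells alike. Of 23 such genes outside the rule, 8 were at least 1.5-fold higher and 1 lower in CKO members, where 7.14% of all 7035 genes with at least 20 UMIs were higher and 11.8% lower. The list median was 0.29 in members and 0.46 in other B cells. Gbp2, a guanylate-binding GTPase of the interferon-gamma response, stood at 71.3 CPM in CKO members and 29.2 CPM in WT members. Its log2 ratio was 1.29 (0.69 to 1.92) in members and 1.47 (1.13 to 1.83) in other B cells. Irgm1, an immunity-related GTPase, stood at 104 and 47.5 CPM, with ratios of 1.14 and 0.61. The 1 gene lower in CKO was Ifi208, at 5.54 CPM in CKO members and 26.5 CPM in WT members. The rule had removed cells rich in other genes of this family, so the list was read in what was left.

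Klf2, Fos and Plk2 were lower in CKO members and in CKO other B cells by like amounts. Klf2, which maintains lymphocyte quiescence and trafficking, stood at 294 CPM in CKO members and 618 CPM in WT members, with a log2 ratio of -1.07 (-1.26 to -0.89) in members and -1.23 (-1.32 to -1.14) in other B cells. Fos stood at 287 and 562 CPM, with ratios of -0.97 (-1.16 to -0.78) and -1.25 (-1.36 to -1.14). Plk2, a stress-induced kinase, stood at 61.7 and 139 CPM, with ratios of -1.17 and -1.16. Thus among immediate early genes Fos was lower and Nr4a2 higher in the same CKO members, and the list median was 0.00. Cd52, a lymphocyte surface glycoprotein, stood at 890 CPM in CKO members and 1459 CPM in WT members, and Hist1h1e, a linker histone, at 71.3 and 146 CPM. Arrdc3, Emp3, Bcas2 and Txnl4a were also among the 10 lowest, with ratios between -1.44 and -1.08 in members and -0.71 and -0.38 in other B cells. In the second selection Arrdc3 was at -0.57, short of 1.5-fold, and Txnl4a at -0.70.

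Cholesterol synthesis genes were lower in CKO members: of 9 read, 6 were at least 1.5-fold lower and 0 higher, where 11.8% of all genes read were lower and 7.14% higher. The list median was -0.62 in members and -0.52 in other B cells. Hmgcs1, an early enzyme of the pathway, stood at 13.5 CPM in CKO members and 42.0 CPM in WT members, a log2 ratio of -1.64 (-2.54 to -0.81), and at -0.13 in other B cells. Srebf2, the factor that switches the pathway on, stood at 90.2 and 138 CPM, a ratio of -0.61 (-0.97 to -0.25). The ribosome biogenesis list had a CKO over WT median of -0.05 and the NF-kB list one of 0.18.

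The largest ratios in CKO members were in genes with few UMIs in WT. Aldh7a1, an aldehyde dehydrogenase gene on chromosome 18, had 74 UMIs in CKO members and 3 in WT members, a log2 ratio of 4.42 (2.82 to 6.73), and 3.38 (2.59 to 4.30) in other B cells. Il1b, an inflammatory cytokine gene of myeloid cells, stood at 131 CPM in CKO members and 32.9 CPM in WT members, and in other B cells at 159 and 30.7 CPM. One CKO cell held 42 of its 166 UMIs and one WT cell 14 of its 36, and its log2 ratio in members was 2.0 by the main rule and 1.06 in the second selection. Ifitm1 and S100a6 leaned on single cells, which held 42 of 80 Ifitm1 UMIs and 24 of 77 S100a6 UMIs of CKO members. The Ifitm1 ratio was 3.79 by the main rule and 1.67 in the second selection. The neutrophil marker sum was higher in CKO members in the same direction, with all 4 of its genes read outside the rule at least 1.5-fold higher, and its part in these genes was not tested.

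Rpa1, the gene named in the title, was read from few UMIs in members. It had 38 UMIs in CKO members and 19 in WT members, or 30.1 and 17.3 CPM, a log2 ratio of 0.79 (-0.04 to 1.67). In other B cells it stood at 26.9 CPM in CKO and 31.7 CPM in WT, a ratio of -0.24 (-0.59 to 0.12). The log2 ratio of members over other B cells was 0.16 (-0.37 to 0.66) in CKO and -0.87 (-1.67 to -0.15) in WT. Counts over the 3′ end of a transcript need not fall when an exon is removed, and which cells carry a deletion is not given, so these values do not check the labels.

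**Figure D5:**
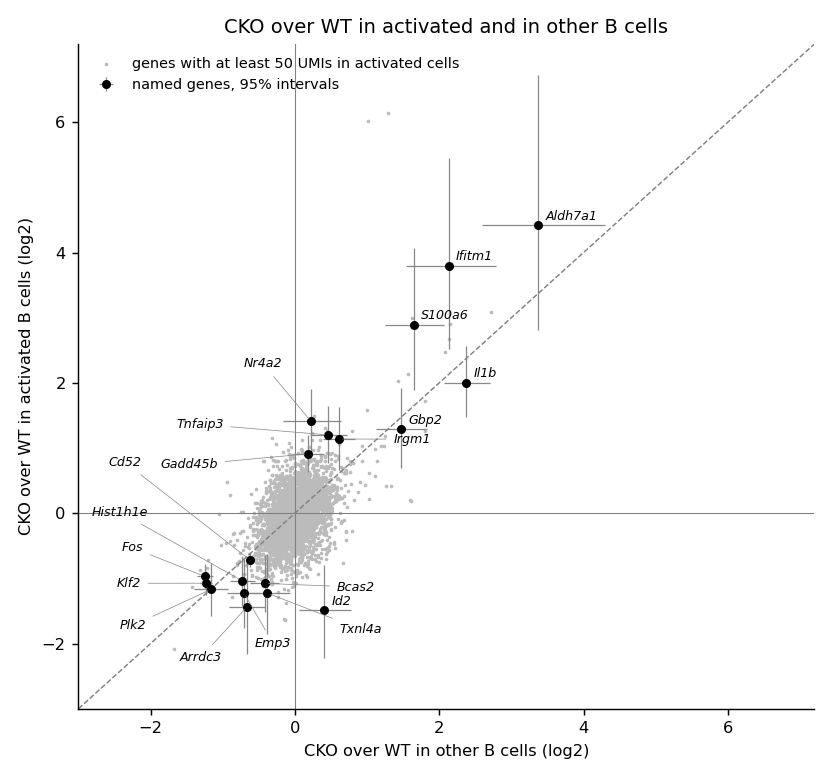
Log2 ratio of CKO over WT in activated B cells (y axis) against that in other B cells (x axis) for genes with at least 50 UMIs in members, with named genes and their 95% counting intervals in black and equal ratios on the dashed line. Klf2, Fos and Plk2 lie near the line, whereas Nr4a2 and Gadd45b lie above it and Id2 below it.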

How the data were processed

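The deposited values are raw integer UMI counts for each gene and barcode, from droplet-based 3′ libraries. Different versions of the counting software are on record: per the file headers the matrices came from Cell Ranger 6.0.1, but version 5.0.0 stands in the submitters' processing notes, beside Seurat 3.2.3 and mm10. Both libraries were read with Python 3.11.15, numpy 2.4.6, scipy 1.17.1, pandas 2.3.3 and scanpy 1.11.5. They held 57740083 UMIs in 11311 barcodes (CKO) and 18627050 UMIs in 2972 barcodes (WT).

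UMIs were summed over members and over other B cells of each library and scaled to counts per 1000000 UMIs of the same cells (CPM). Ratios carry exact conditional 95% intervals, levels exact Poisson and shares exact Clopper-Pearson ones, which cover counting error only. A sum of 0 was set to 3 counts in ratios. No test was run, since each label has 1 library. For members over other B cells, the minimum of 50 UMIs, or 20 for lists, was applied to the members alone, observed or expected, which is stricter than planned.

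Genes named for members over other B cells were the 15 highest and 10 lowest by the weaker library (at least 50 UMIs, and 50 CPM in the higher side). For CKO over WT they were the 10 highest and 10 lowest by the interval bound nearest 0 (also with a UMI in at least 5% of members in the higher library). Of those 10 highest, 1 gene is not reported here. Immunoglobulin, ribosomal, mitochondrial, sex-linked and unnamed genes and the genes of the rule were left out of this ranking. The genes of the rule, Rpa1, up to 4 genes of a list and the 5 genes most like the Egr and Myc sum were also named. Other genes, and the split by Myc, were chosen after their values were seen. The members, lists and alternatives were chosen with earlier results of these data known. Of 519 list symbols, 516 matched the files. Scrublet was run through scanpy with an expected rate of 0.8% per 1000 cells, and no cell was removed for it in the values given. The computations were tested on simulated data.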

Additional observations from a re-analysis of the deposited data

Results flagged for a closer look

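Id2, an inhibitor of E proteins, ran in opposite directions in the 2 libraries. Its log2 ratio of members over other B cells was -0.85 (-1.50 to -0.26) in the library labelled CKO and 1.05 (0.54 to 1.55) in the library labelled WT; with 1 library each, this difference was not tested. Id2 had 25 UMIs in CKO members and 61 in WT members, and 1 WT cell held 14 of them. The CKO over WT log2 ratio of Id2 in members was -1.49 by the main rule. It was -0.77 without cells holding UMIs of other myeloid or innate genes, and -0.70 in the second selection.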

How the results depend on the processing

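The difference in the share of activated B cells (CKO minus WT) was -13.1 percentage points and was negative under each alternative run. With B cells thinned to 1000 UMIs, it was -5.22 at a threshold of 2 and -1.99 at 3. It moved to -16.4 with a threshold of 2 Egr and Myc UMIs, -7.60 with 5, -8.12 without Myc, -8.14 with members chosen after thinning to 2000 UMIs at a threshold of 2 (-4.77 at 3 in the same cells), and -4.42 over all passing cells. The count of genes higher in members over other B cells was 18 and moved to 911 with no filter on UMIs, 8 with at least 200 UMIs and 29 against B cells with 0 Egr and Myc UMIs. The count of lower genes was 3 and moved to 73 and 0 under those 2 filters, 0 without any S100a8 or S100a9 UMI, 1 without cells holding UMIs of other myeloid or innate genes, 0 with sums thinned to 2000 UMIs per cell, and 6 without the top cell of each gene (an alternative added after seeing the data). The CKO over WT counts of 194 higher and 311 lower genes moved to 297 higher with a threshold of 2, 176 lower without Myc, 2068 and 3076 with no filter, and 23 and 35 with at least 200 UMIs. The UMI filters change how many genes are read, and the share of genes past the fold can change as well. For CKO over WT it was 4.20% higher and 6.74% lower at a minimum of 50 UMIs, and 7.14% and 11.8% at 20. For members over other B cells it was 0.369% higher and 0.0614% lower at 50 UMIs, and 0.38% and 0.231% at 20. The causes of these moves were not tested. Of the values of single named genes under the alternatives, 328 of members over other B cells and 225 of CKO over WT moved by less than their counting interval, 22 and 15 moved by more, and none past its fold changed sign. No paired analysis was possible because each label has 1 library. Depth limits genes below about 50 UMIs, and no value here measures variation between mice.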
